A study of Arabidopsis thaliana with 15 samples.

Results

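MGL and GTR2 are a pair of Arabidopsis genes of sulfur metabolism that were chosen by their MAS5 signal, which was higher in the WUSp cells than in the other sorted cell populations. Each gene has 1 probe set in the probe-to-gene table, so the pair makes up 2 of the 13513 probe sets that the table pairs with 1 gene. MGL is AT1G64660 on chromosome 1 and is read by probe set 261957_at. GTR2 is AT5G62680 on chromosome 5 and is read by probe set 247440_at.

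MGL encodes methionine gamma-lyase, a cytosolic enzyme that splits methionine into methanethiol, ammonia and 2-oxobutanoate, a precursor of isoleucine. GTR2 encodes a proton-coupled importer of the plasma membrane that takes up glucosinolates, the sulfur-rich defence compounds of the cabbage family, some of which are built from methionine. GTR2 and its close relative GTR1 load glucosinolates into the phloem and control their supply to seeds.

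The study measured total RNA of 24-day-old plants on 15 Affymetrix arrays. Sorted cells make up 4 groups, CLV3n, CLV3p and FILp with 3 arrays each and WUSp with 2. CLV3 encodes the peptide signal of the stem cells, WUS the homeodomain factor of the organizing centre below them and FIL a YABBY factor of young organs. The design text says that CLV3n cells lack the CLV3p cell type. The other groups, Protoplast Induced and Uninduced, have 2 arrays each and are taken to be cells put through protoplast preparation and material that was not, which the labels do not spell out. The genotype, strain, reporter genes and tissue of each group, and whether its arrays came from separate plants or sorts, are not given in the sources used here, so p-values below reflect only how far these arrays differ, which may be technical.

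Of the genes that name the populations, CLV3 alone has a probe set in the table, and its signal was 876 in CLV3p against 9.13 in CLV3n, 3.75 in FILp and 66.4 in WUSp. CLV3 was called lower in WUSp than in CLV3p (log2 difference -3.72; limma, adjusted p = 0.00161). It was called higher in WUSp than in CLV3n and FILp (2.86 and 4.15; limma, adjusted p = 0.0126 and 0.000966). With signals raised to the 20th percentile of sorted cells, 19.5, both of the latter were 1.77. WUS has no probe set paired with it alone in the table, so its signal was not read here. The label of the WUSp cells was therefore checked only through genes of other cells. The organ genes YAB3 and YAB5 had signals of 33.5 and 15.6 in WUSp and 34.3 and 6.10 in CLV3p, against 397 and 449.8 in FILp. UFO, a floral meristem gene, had 1652 in WUSp, 1208 in CLV3p and 966 in CLV3n against 138 in FILp, and all 3 genes were called different between WUSp and FILp but not between WUSp and CLV3p. The epidermal receptor kinase gene CR4 had 166 in WUSp against 457 to 624 in the other sorted groups. Of 10 phloem markers, SWEET11 alone has a probe set in the table, so phloem content could be checked with 1 gene only. It had its lowest signal in WUSp (48.4, against 64.5 to 154 in the other sorted groups). All 3 measured mesophyll markers (PRK, RCA and LHCB4.1) were called higher in WUSp than in CLV3p, and RCA alone over CLV3n and FILp; the part of such cells in the results below was not tested.

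The arrays divide by the hybridisation control bioC, with signals of 216 to 313 on 5 arrays (CLV3n 3, CLV3p 3 and all 3 of FILp) and 643 to 1070 on the other 10. All WUSp arrays lie on the high side and all FILp arrays on the low side. Among sorted arrays those of WUSp had the lowest ubiquitin 3'/5' ratio (log2 2.08 and 2.33, against 2.44 to 3.40) and the highest actin ratio (7.14 and 7.28, against 6.38 to 7.12). Their spiked poly-A transcripts averaged 6.95 and 6.98 on the log2 scale, below the 7.33 to 8.70 of the other sorted arrays. CLV3n and CLV3p also hold arrays of high bioC. Within the high-bioC arrays (n = 2 and 2), the log2 difference of WUSp over CLV3p was 6.56 for MGL and 3.05 for GTR2. Over CLV3n it was 2.90 and 1.89. Between WUSp and FILp, the bioC level cannot be told apart from the group. The ubiquitin, actin and poly-A differences cannot be told apart from the WUSp group either. The part of all these differences in the WUSp peaks was not tested.

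The signals of MGL were 693 and 388 on the WUSp arrays. On the CLV3n arrays they were 43.3, 112 and 13.2. On the CLV3p arrays they were 11.7, 2.60 and 2.66. MGL was thus low in every array of the stem cell population, while CLV3n spread over an 8.51-fold range. The FILp arrays had 2.89, 59.7 and 33.5. Protoplast Induced had 134 and 128, and Uninduced had 124 and 121. The WUSp arrays were the highest of all 15, and the lower of them lay 3.47-fold above the highest array of the other sorted groups.

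GTR2 had signals of 707 and 655 on the WUSp arrays. The CLV3n arrays had 208, 163 and 119. The CLV3p arrays had 82.9, 81.2 and 14.3, and the FILp arrays had 18.1, 44.0 and 41.7. Among sorted cells the WUSp arrays again stood apart, the lower one 3.14-fold above the highest other array. Protoplast Induced had 774 and 936, and Uninduced had 339.5 and 331. In contrast to MGL, GTR2 therefore had its highest signals outside the sorted cells, and both Protoplast Induced arrays exceeded both WUSp arrays.

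**Figure D1:**
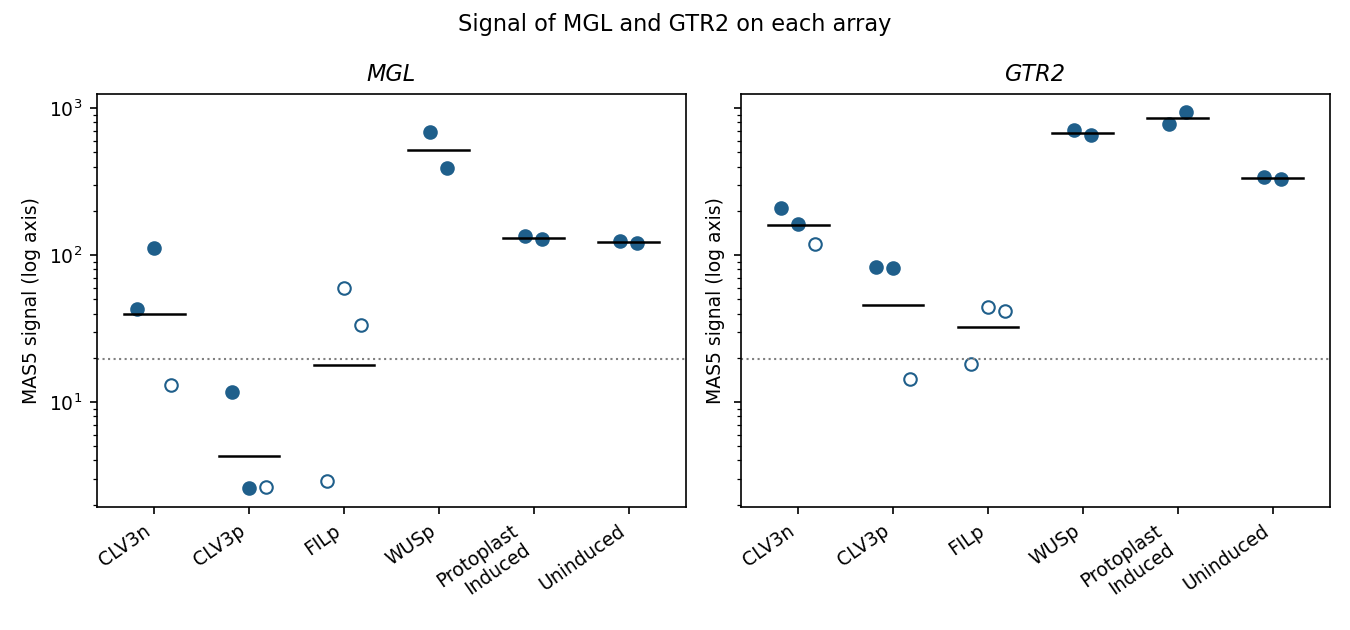
MAS5 signal of MGL (left) and GTR2 (right) on each of the 15 arrays, on a log axis, by group. Points are arrays (filled, high bioC signal; open, low bioC signal), bars are geometric means of a group and the dotted line is the 20th percentile of all signals of sorted cells, 19.5. MGL is highest in WUSp, at 388 and 693, while GTR2 is as high or higher in Protoplast Induced, at 774 and 936.

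The order of the group means differed between the genes. For MGL it was WUSp (519), Protoplast Induced (131), Uninduced (123), CLV3n (39.9), FILp (17.9) and CLV3p (4.32). The SD of the log2 signal was 0.59 in WUSp (n = 2), 1.55 in CLV3n (n = 3), 2.32 in FILp (n = 3) and 1.24 in CLV3p (n = 3), so that the neighbours CLV3n and FILp, and FILp and CLV3p, overlapped array by array. For GTR2 the order was Protoplast Induced (851), WUSp (680.5), Uninduced (335), CLV3n (159), CLV3p (45.9) and FILp (32.2). The SD of its log2 signal was 0.08 in WUSp, 0.40 in CLV3n, 1.45 in CLV3p and 0.72 in FILp, and among its neighbours in that order CLV3p and FILp overlapped.

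The difference between WUSp and the next sorted group chose both genes and is given without a test. MGL was 13.0-fold higher in WUSp than in CLV3n, a log2 difference of 3.70, with 4.85 over FILp and 6.91 over CLV3p. GTR2 was 4.27-fold higher than in CLV3n, a log2 difference of 2.09, with 3.89 over CLV3p and 4.40 over FILp. By this margin over the next sorted group, MGL ranked 2 and GTR2 ranked 9 among the 8296 probe sets with 1 gene that were tested in sorted cells. These ranks restate the choice and lend it no support.

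The size of the MGL differences depends on signals near background. MGL lay under the 20th percentile of all signals of sorted cells, 19.5, on 5 of the 11 sorted arrays, and GTR2 on 2 of them. With such signals raised to 19.5, the log2 difference of MGL between WUSp and CLV3p was 4.73 in place of 6.91, and between WUSp and FILp 3.94 in place of 4.85. For GTR2 these values were 3.74 and 4.37, close to the unraised ones. Testing required a signal over the array's 40th percentile on 2 or more arrays, which MGL had on 1 of the 9 sorted arrays outside WUSp, so that it entered the tests through the WUSp arrays. GTR2 did so on 5 of these 9. In bulk arrays of this kind, fewer cells that express a gene and less of its RNA per cell cannot be told apart.

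Protoplasting is the treatment that frees cells for sorting, and the pair of Protoplast Induced and Uninduced shows which signals move with it. The rule that chose MGL and GTR2 did not use this pair. GTR2 rose 2.54-fold, from a mean signal of 335 to 851, a log2 difference of 1.34 ± 0.15 (SE, n = 2 and 2; limma, adjusted p = 8.33e-05, 95% interval 1.02 to 1.67). MGL had 123 and 131, a log2 difference of 0.10 ± 0.24 (limma, adjusted p = 0.804, 95% interval -0.42 to 0.61). The intervals of the genes do not overlap, and that of MGL reaches a log2 rise of 0.61. In this pair 10.5% of all 13911 tested probe sets were called higher and 11.4% lower, so a call such as that of GTR2 is common. The spiked poly-A transcripts also differed here, at log2 9.57 and 8.86 in Protoplast Induced against 6.69 and 6.86 in Uninduced. The part of this difference in the rise of GTR2 was not tested, and it cannot be told apart from protoplasting.

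The call of GTR2 held when any of the 4 arrays was left out (log2 difference 1.21 to 1.48) and with each normalization tried. It ended in a single fit of all 15 arrays (adjusted p = 0.318), in which the wide spread of GTR2 among the sorted arrays enters its error.

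Set against this pair, the sorted cells fall on different sides of the unsorted material. For MGL the mean of WUSp was 3.96-fold above Protoplast Induced and 4.23-fold above Uninduced. With signals under 19.5 raised to it, CLV3n was 2.88-fold and FILp 3.87-fold below Protoplast Induced. All 3 CLV3p arrays lay under 19.5, so that CLV3p was at least 6.73-fold lower. For GTR2 the mean of WUSp was 1.25-fold below Protoplast Induced and 2.03-fold above Uninduced. With low signals raised in the same way, CLV3n, CLV3p and FILp lay 5.34-fold, 16.8-fold and 25.9-fold below Protoplast Induced for GTR2, and their means were also below Uninduced. These folds are given without a test, since the sorted values chose the genes.

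Comparisons among CLV3p, CLV3n and FILp leave the WUSp arrays out of the difference. The rule used these groups as the lower side of the peak. The p-values of GTR2 among them, here and below, are therefore not independent of the choice and lend it no support. GTR2 was lower in FILp than in CLV3n by 4.95-fold, a log2 difference of -2.31 ± 0.57 (n = 3 and 3; limma, adjusted p = 0.0364), and no FILp array reached a CLV3n array. In this comparison 2.56% of tested probe sets were called lower and 1.73% higher. The FILp arrays all have low bioC, and against CLV3n 3, the 1 CLV3n array with low bioC, the difference was -1.89. With the bioC level as a fixed term it was -1.26 and the call ended (adjusted p = 0.265), and leaving out single arrays ended it in several cases. Without CLV3n 1, FILp 1, CLV3n 2, FILp 3, FILp 2, WUSp 2 or WUSp 1 the adjusted p was 0.149, 0.149, 0.0904, 0.0791, 0.0611, 0.0517 and 0.0517.

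MGL entered the fit through its WUSp arrays, so its differences among these groups are given as a description, with no test. Both genes had lower means in CLV3p than in CLV3n, and the arrays of these groups did not overlap for either gene. How many of all probe sets separate in this way, here or between FILp and CLV3n, was not counted. The separation therefore does not mark out the pair. For MGL the nearest arrays, CLV3p 1 at 11.7 and CLV3n 3 at 13.2, both lay under 19.5, so their order is within background. For MGL the log2 difference was -3.21, or -1.23 with signals raised to 19.5. For GTR2 it was -1.80 ± 0.57 and did not pass the threshold (limma, adjusted p = 0.0524, 95% interval -3.03 to -0.56), where 8.95% of tested probe sets were called lower and 4.88% higher. Within the arrays of high bioC the differences were -3.66 for MGL and -1.17 for GTR2 (n = 2 and 2), and within those of low bioC -2.31 and -3.06 (n = 1 and 1). GTR2 passed with the bioC level as a fixed term (adjusted p = 0.00654), with signals raised to 19.5 (-1.65, adjusted p = 0.0333) and with the replicate number as a block (adjusted p = 0.0355). It also did so without CLV3p 1, CLV3p 2 or FILp 1 (adjusted p = 0.0259, 0.0346 and 0.0461).

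The arrays of CLV3p and FILp overlapped for both genes. The log2 difference was -2.05 for MGL, or -0.80 with signals raised to 19.5. For GTR2 it was 0.51 ± 0.57 (limma, adjusted p = 0.577, 95% interval -0.72 to 1.74). Of all tested probe sets 10.5% were called higher and 12.2% lower in CLV3p. Single arrays weigh on these values: without FILp 1 the MGL difference was -3.37, and without CLV3p 3 that of GTR2 was 1.35 and called (adjusted p = 0.0225). Between FILp and CLV3n, MGL had -1.16, or -0.43 with signals raised to 19.5, and its arrays overlapped.

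**Figure D2:**
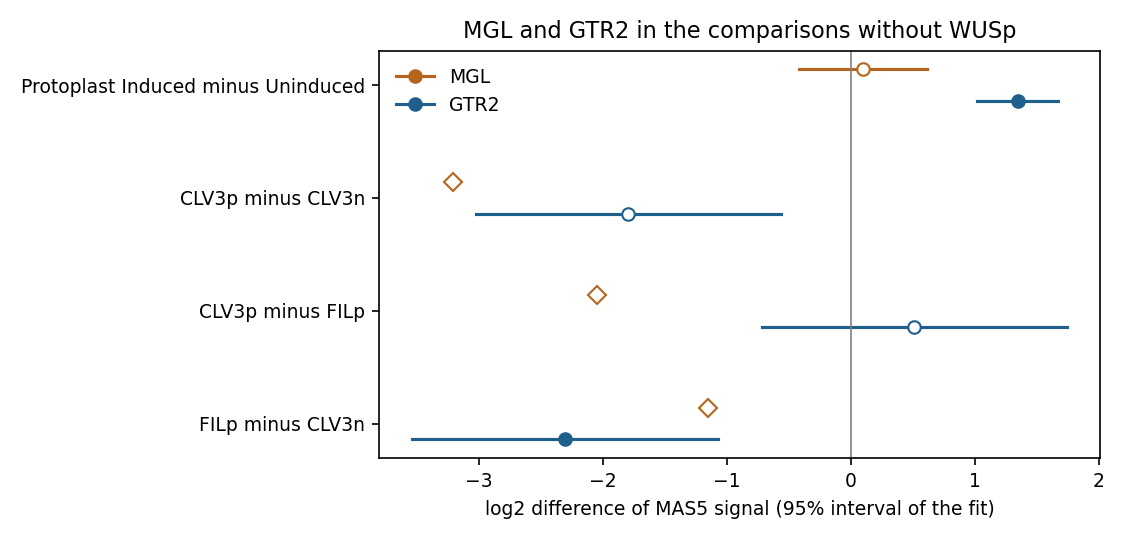
Log2 difference of MAS5 signal for MGL and GTR2 in the 4 comparisons that contain no WUSp array, as circles with the 95% interval of the limma fit (filled where the adjusted p was under 0.05) and, for MGL among sorted groups, as diamonds with no test. GTR2 had 1.34 with protoplasting and -2.31 between FILp and CLV3n, both called, and MGL had 0.10 with protoplasting.

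The remaining genes of the pathway were listed by role from known biology, with 186 genes in 8 lists beside MGL and GTR2. The lists were chosen with earlier results of these data known, so the counts below are not an independent check. The probe-to-gene table gives 28 of them a probe set of their own, and 22 were tested in sorted cells. In WUSp, 8 of the 22 rose and 1 fell relative to CLV3p, where 12.4% of all probe sets were called higher and 11.7% lower. Relative to CLV3n 6 rose and 1 fell (8.33% and 10.8% of all), and relative to FILp 6 rose and 0 fell, also 0 at an unadjusted p under 0.05 (7.28% and 7.69% of all by limma). The median log2 difference of the 22 genes was 0.49, 0.43 and 0.50, against -0.04, -0.04 and -0.03 over all tested probe sets. GTR1, SIR and MCCA were called higher in WUSp than in each of the other sorted groups, 3 of 22 genes, as were 2.44% of all tested probe sets.

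**Figure D3:**
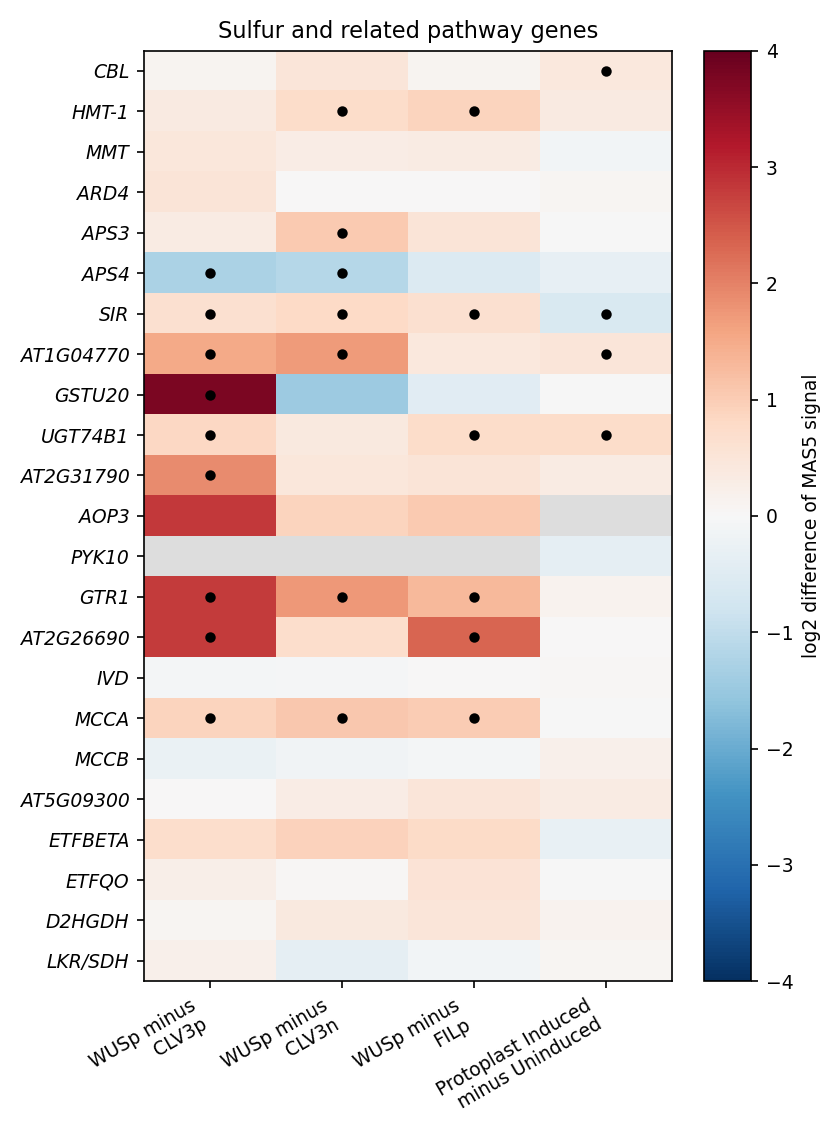
Log2 difference of MAS5 signal for the tested pathway genes beside MGL and GTR2, in WUSp against each other sorted group and in Protoplast Induced against Uninduced. Black dots mark adjusted p under 0.05 and grey cells were not tested; GTR1 is called in all 3 WUSp comparisons and not with protoplasting.

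Among transporters, GTR1 encodes the importer most closely tied to GTR2 in function. Its signals were 2177 and 2483 on the WUSp arrays, 941, 743 and 493 in CLV3n, 358, 378 and 269 in CLV3p, and 924, 1372 and 677 in FILp. The WUSp arrays were the highest of all 15, and Protoplast Induced (1034 and 871) lay close to Uninduced (901 and 816). The log2 difference of WUSp was 2.81 ± 0.30 over CLV3p (limma, adjusted p = 8.33e-06), 1.73 ± 0.30 over CLV3n (adjusted p = 0.00113) and 1.29 ± 0.30 over FILp (adjusted p = 0.00787). The last of these calls ended with the bioC level as a fixed term (0.68, adjusted p = 0.188) and without WUSp 2 (adjusted p = 0.0782). GTR1 was therefore like MGL, and unlike GTR2, in that its WUSp level was above that of both unsorted groups. AT2G26690, annotated as NPF6.2 of the same transporter family, rose in WUSp over CLV3p (2.79 ± 0.48, limma, adjusted p = 0.000732) and over FILp (2.31 ± 0.48, adjusted p = 0.00432). Over CLV3n it had 0.72, not called (adjusted p = 0.3165). Its signals of 460 and 261 in WUSp were not above the 432 to 504 of Protoplast Induced, and without WUSp 1 or with the bioC level as a fixed term its call over FILp ended (adjusted p = 0.0919 and 0.0502). The 2 other listed relatives, AT1G69860 and AT5G28470, had group means of 10.2 to 47.2 in the sorted cells and were not tested.

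Of the methionine genes, 4 beside MGL were tested. HMT-1, a homocysteine methyltransferase that makes methionine, rose in WUSp over FILp (0.90 ± 0.24, limma, adjusted p = 0.0177) and over CLV3n (0.73 ± 0.24, adjusted p = 0.0427). Over CLV3p it had 0.35, not called (adjusted p = 0.3145). The first call also ended without FILp 2 or FILp 3 (adjusted p = 0.0565 and 0.0704), and the second without CLV3n 2, CLV3n 3, FILp 2, FILp 3 or WUSp 1 (0.0528 to 0.0987), and with quantile normalization, no filter or plain eBayes (0.0724, 0.0564 and 0.0762). Both ended without WUSp 2 (adjusted p = 0.225 and 0.337) and with the bioC level as a fixed term (adjusted p = 0.164 and 0.0522). CBL, the cystathionine beta-lyase of methionine synthesis, had log2 differences of 0.10, 0.48 and 0.12 over CLV3p, CLV3n and FILp, none called. MMT, which methylates methionine for transport, and ARD4, a dioxygenase of methionine salvage, had no call in any of the 3. None of these genes showed a difference near the 3.70 by which MGL exceeded its next sorted group. MGL was chosen for that margin and they were not, so the contrast does not set MGL apart within its pathway.

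Of the genes of sulfate reduction, SIR, the sulfite reductase, rose in WUSp by 0.63 ± 0.19, 0.80 ± 0.19 and 0.65 ± 0.19 over CLV3p, CLV3n and FILp (limma, adjusted p = 0.0286, 0.0106 and 0.0335). All 3 calls ended without WUSp 2 (adjusted p = 0.365, 0.185 and 0.423), that over CLV3p also without CLV3p 2 or CLV3p 3 (0.0642 and 0.0576), and that over FILp without any 1 of the FILp arrays (0.0564 to 0.117), with the bioC level as a fixed term (0.103) and with plain eBayes (0.0581). With protoplasting SIR fell by 0.60 ± 0.15, with signals of 903 and 1041 in Protoplast Induced against 1701 and 1278 in Uninduced (limma, adjusted p = 0.0162), which ended without Protoplast Induced 1 or Uninduced 1 (adjusted p = 0.0869 and 0.0591). Relative to CLV3n, the ATP sulfurylase genes went apart. APS3 was higher in WUSp than in CLV3n (1.03 ± 0.22; limma, adjusted p = 0.00545), a call that ended without WUSp 1 (0.97). Over CLV3p and FILp it had 0.33 and 0.52, not called (adjusted p = 0.312 and 0.139). APS3 was also higher in CLV3p than in CLV3n (0.70; adjusted p = 0.0288). That call ended without CLV3n 1, CLV3n 3 or CLV3p 3 (0.106, 0.0759 and 0.116) and with array weights (0.0930). APS4 was lower in WUSp than in CLV3p and CLV3n (-1.25 ± 0.38 and -1.14 ± 0.38; limma, adjusted p = 0.0268 and 0.0485), which ended without WUSp 2 (-0.82 and -0.71). The first of these calls also ended without CLV3p 1 or CLV3p 2 (0.0675 and 0.0894), and the second without CLV3n 1, CLV3n 2, CLV3p 1, CLV3p 2, FILp 2 or WUSp 1 (0.0502 to 0.132). Quantile normalization, median centring, no filter and plain eBayes ended the second as well (0.0514, 0.0616, 0.0524 and 0.0852), and plain eBayes the first (0.0554).

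AT1G04770, entered in the list of genes that respond to sulfur deficiency, had signals of 891 and 976 in WUSp, 244 to 325 in CLV3n, 282 to 355 in CLV3p and 519 to 852 in FILp. It rose in WUSp over CLV3p by 1.52 ± 0.23 on the log2 scale and over CLV3n by 3.25-fold (limma, adjusted p = 0.000196 and 0.000137), and it was also higher in FILp than in CLV3n (1.27 ± 0.20; adjusted p = 0.00188). Unsorted material had the highest signals, 1908 and 2270 in Protoplast Induced and 1628 and 1380.5 in Uninduced, so that, as for GTR2, Protoplast Induced was the highest group.

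Of the genes of glucosinolate synthesis, 4 were tested in sorted cells, and 3 rose in WUSp over CLV3p, where 12.4% of all probe sets did. GSTU20, a glutathione transferase, had a difference of 3.77 ± 0.58 (limma, adjusted p = 0.000261), or 2.32 with signals raised to 19.5, since its mean in CLV3p was 7.10. AT2G31790 and UGT74B1, a glucosyltransferase of glucosinolate synthesis, had 1.88 ± 0.34 and 0.84 ± 0.20 (adjusted p = 0.000871 and 0.00614), the last of which ended without WUSp 1 (adjusted p = 0.0696). GSTU20 and AT2G31790 were also lower in CLV3p than in CLV3n and FILp, so their lowest group was the stem cell population. The WUSp mean of GSTU20, 97.1, was itself below those of CLV3n (264) and FILp (132). Its difference from CLV3n was -1.44 and not called (limma, adjusted p = 0.0946). With signals raised to 19.5 that difference was called (adjusted p = 0.0194). Relative to CLV3n none of the 4 rose in WUSp, and relative to FILp only UGT74B1 did (0.73 ± 0.20; adjusted p = 0.0203), which ended without either WUSp array (adjusted p = 0.16 and 0.0898), without FILp 1 or FILp 3 (0.0594 and 0.0758) and with the bioC level as a fixed term (0.223). UGT74B1 rose with protoplasting by 0.74 ± 0.16 (adjusted p = 0.00645), which ended without Protoplast Induced 1 (adjusted p = 0.0669). The photosynthesis gene RCA was called higher in WUSp in all 3 comparisons, at 1.96, 0.87 and 0.90 over CLV3p, CLV3n and FILp. PRK and LHCB4.1 had 2.27 and 1.83 over CLV3p, both called. Over CLV3n and FILp PRK had 0.55 and 0.60 and LHCB4.1 had 0.14 and 0.16, none called. The part of these genes in the pathway counts was not tested.

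MGL yields a precursor of isoleucine, and the breakdown of branched-chain amino acids was listed beside it. Of 8 tested genes MCCA alone was called in WUSp, a share near the 12.4%, 8.33% and 7.28% of all probe sets called higher over CLV3p, CLV3n and FILp. It encodes a subunit of methylcrotonoyl-CoA carboxylase, a leucine breakdown enzyme, and its signals of 1260 and 947 in WUSp exceeded every other array (466 to 745). Its log2 difference was 0.89 ± 0.22, 1.08 ± 0.22 and 1.01 ± 0.22 over CLV3p, CLV3n and FILp (limma, adjusted p = 0.00784, 0.00341 and 0.00509), and all 3 calls ended without WUSp 1 (adjusted p = 0.135, 0.0745 and 0.108). MCCB, the partner subunit, had -0.26, -0.15 and -0.08, none called. JMT, the only listed jasmonate gene with a probe set in the table, was not tested, with group means of 1.18 to 31.0 in sorted cells.

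With protoplasting, 3 of 22 tested pathway genes rose (CBL, AT1G04770 and UGT74B1) and 1 fell (SIR), shares near or below the 10.5% and 11.4% of all probe sets, with a median log2 difference of 0.06 against 0.00 over all probe sets. CBL rose by 0.42 ± 0.10 (limma, adjusted p = 0.0113) and AT1G04770 by 0.47 ± 0.13 (adjusted p = 0.0253), both less than the 1.34 of GTR2. The call of CBL ended without either Protoplast Induced array (adjusted p = 0.0649 and 0.113) and that of AT1G04770 without Protoplast Induced 2 or Uninduced 2 (adjusted p = 0.25 and 0.0788), with median centring (0.0637) and with no filter (0.0593). None of the 4 calls held with plain eBayes or in a single fit of all 15 arrays (adjusted p = 0.0506 to 0.301).

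**Figure D4:**
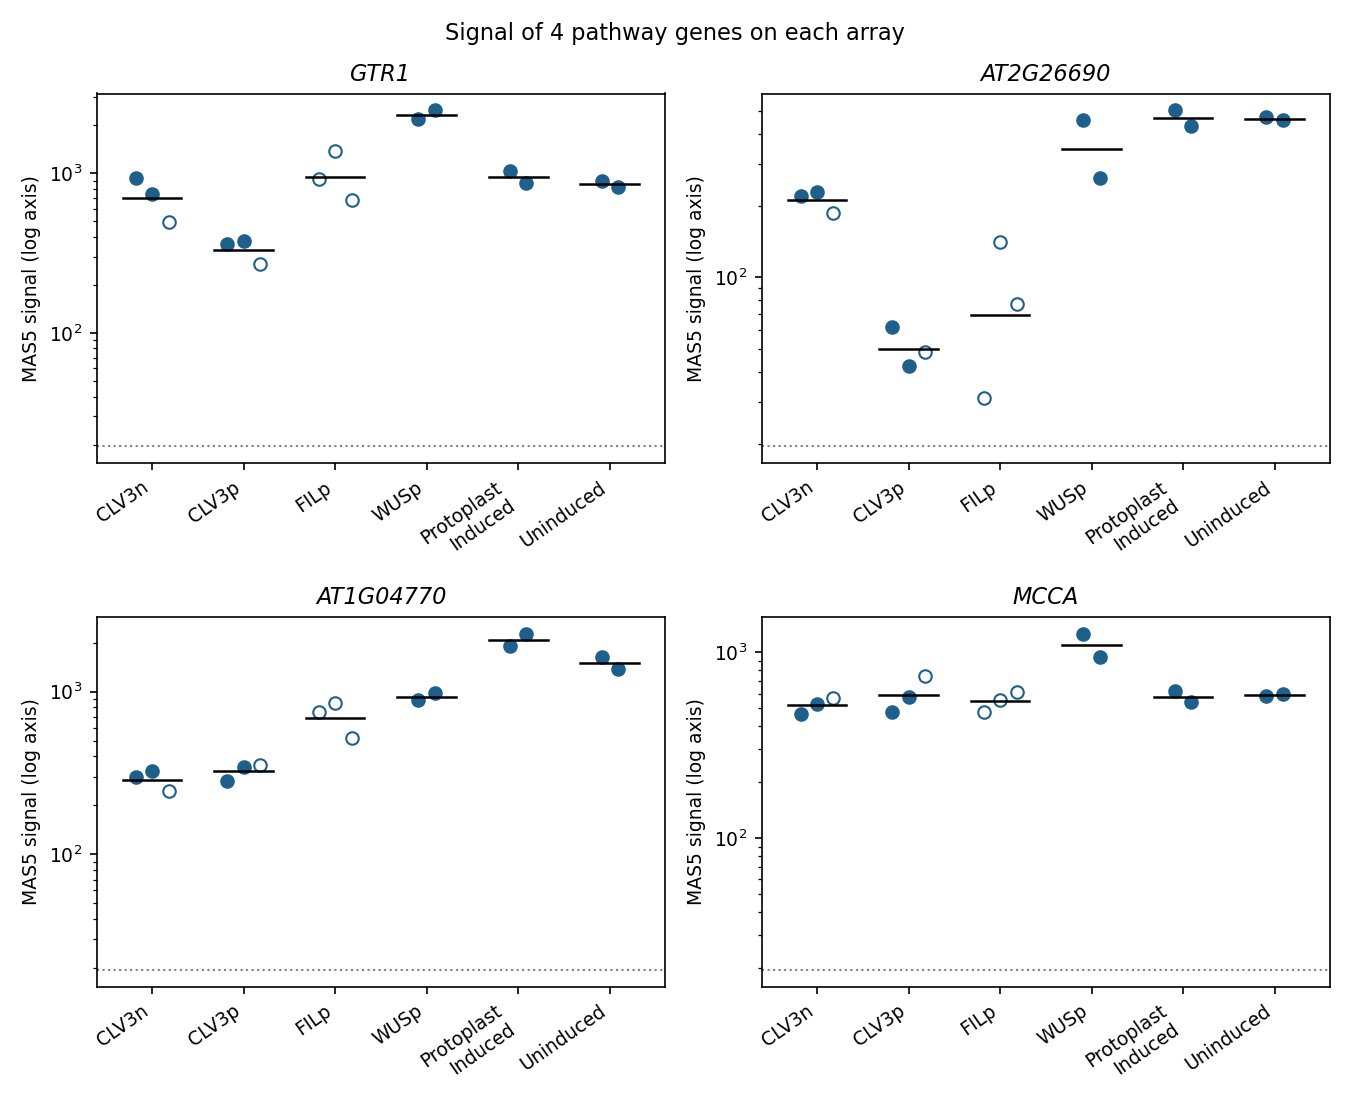
MAS5 signal of GTR1, AT2G26690 (NPF6.2), AT1G04770 and MCCA on each array, on log axes, with symbols as in the plot of MGL and GTR2. GTR1 and MCCA are highest on both WUSp arrays, while AT1G04770 is highest in Protoplast Induced, at 1908 and 2270.

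The profiles of MGL and GTR2 over the 15 arrays had a Pearson r of 0.83 on the log2 scale, 0.82 over the 11 sorted arrays and 0.59 over the 9 without WUSp. These values are descriptions, since the arrays share groups and both genes were chosen for the same peak. The 5 genes most like MGL over the 15 arrays, among 8522 probe sets, were AT1G43910 (r = 0.97), AT3G15450 (0.93), BGLU46 (0.91), UGT84A3 (0.90) and AT2G34510 (0.89). AT1G43910 had its highest mean in WUSp, 1090 against 123 in CLV3p, and means of 727 and 741 in Protoplast Induced and Uninduced. BGLU46, a beta-glucosidase gene, had 1067 in WUSp against 94.3 to 160 in the other sorted groups. The genes most like GTR2 were AT1G17230 (0.95), AT3G45310 (0.95), AT1G52700 (0.94), AT5G35560 (0.93) and AT3G05640 (0.92). Unlike GTR2, none of these 5 was called with protoplasting, with log2 differences of 0.05 to 0.32 (limma, adjusted p = 0.269 to 0.847). GTR2 itself ranked 35 in likeness to MGL.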

How the data were processed

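RNeasy columns yielded the total RNA, per the labels' protocols. The authors deposited linear MAS5 signal (intensity) for 22810 probe sets, with MAS5 named in the submitters' processing notes. The authors' scaling shows in a mean of 499.8 between the 2nd and 98th percentile on each array. Probe sets were named from GEO's platform annotation, and loci and names through RefSeq's gene table.

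Here 64 control probe sets were set aside and log2 signal was used without further normalization. The tests took probe sets that exceeded the 40th percentile of signal on 2 or more arrays: 15052 in the fit of 11 sorted arrays and 13911 in that of the protoplasting pair. The test was limma 3.58.1 under R 4.3.3 (eBayes with trend and robust, two-sided, Benjamini-Hochberg over all tested probe sets, threshold 0.05). It was tested on simulated data, where the share of changed probe sets recovered depended on the noise drawn: in the protoplasting pair, small changes were recovered when the noise followed moderated SDs and missed when it followed each probe set's own SD. The moderated version was adopted after the other had been seen. MGL was fitted among CLV3p, CLV3n and FILp as planned, but its p-values there are not reported, since it passed the filter through WUSp. Signals of a group are geometric means, and differences are log2. The number of arrays limits the precision.

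MGL, GTR2, the gene lists, the comparisons and the bioC split were chosen with earlier results of these data known. The genes named are, per list, up to 4 called genes with the largest difference in each WUSp comparison and with protoplasting, measured genes that act next to MGL or GTR2 (here GTR1), the measured markers, and the 5 genes most like each member by Pearson r. MMT, ARD4, MCCB, JMT, AT1G69860 and AT5G28470 fall outside this rule and were added after their values were seen. The labels do not say what replicate numbers share, so the replicate number was used only as an alternative block. Further alternatives were quantile normalization, median centring, a floor at the 20th percentile, other filters, plain eBayes, array weights, 1 fit of all arrays, the bioC level as a fixed term, and leaving out each array.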

Additional observations from a re-analysis of the deposited data

How the results depend on the processing

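The peak of MGL and GTR2 in WUSp over the next sorted group kept its direction under quantile normalization, median centring, the floor and without any single array (2.90 to 4.44 for MGL, 1.89 to 2.29 for GTR2). GTR2 with protoplasting kept its call except in a single fit of all 15 arrays (1.34, adjusted p = 0.318); MGL, not called there, turned to -0.0574 under quantile normalization and was not tested with a filter at the 60th percentile. For CLV3p against CLV3n, the MGL difference was -3.21, also in a single fit and with the bioC level as a fixed term, and -1.23 with the floor; for CLV3p against FILp the floor took it from -2.05 to -0.80. GTR2 (-1.80) passed for CLV3p against CLV3n in a single fit, with the bioC level, with the floor (-1.65) and with the replicate block (-1.80, adjusted p = 0.0355). Of 15 same-numbered pairs of sorted arrays, 2 had deviations correlated over 0.1, CLV3n with CLV3p for replicates 1 and 3 (r = 0.35 for each), against 0.04 for replicate 2, and both replicate 3 arrays have low bioC; the numbers did not pair the other groups. The replicate block changed no other call of GTR2; it ended those of HMT-1 over CLV3n and SIR over FILp (adjusted p = 0.0524 for each). For FILp against CLV3n, the call of GTR2 (-2.31) ended with a filter at the 60th percentile (-2.31, adjusted p = 0.0559), plain eBayes (-2.31, adjusted p = 0.0765) and the bioC level (-1.26). For CLV3p against FILp, GTR2 turned to -0.54 with the bioC level. The causes of these changes were not tested. Without single arrays, the difference of CLV3p from CLV3n ran from -4.01 to -2.46 for MGL and from -2.22 to -0.96 for GTR2, that of CLV3p from FILp from -3.37 to -1.19 and from 0.0848 to 1.35, and that of FILp from CLV3n from -2.02 to 0.16 (0.16 without FILp 1) and from -2.53 to -1.90.

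The count of called pathway genes was 6 for WUSp against FILp and 2 with the bioC level; 5 for CLV3p against CLV3n and 3 with a filter at the 60th percentile; 1 for FILp against CLV3n and 2 with the floor or a single fit; and 4 with protoplasting and 0 by limma with plain eBayes or in a single fit of all arrays (6 and 4 at an unadjusted p under 0.05). Without single arrays it was 3 to 9 for WUSp against CLV3n (3 without WUSp 1, 4 without WUSp 2), 2 to 6 for WUSp against FILp (2 without WUSp 2, 3 without WUSp 1 or FILp 3), 7 to 10 for WUSp against CLV3p, 3 to 6 for CLV3p against CLV3n (3 without CLV3n 1 or CLV3p 3), 1 to 2 for FILp against CLV3n (2 without CLV3p 1 or FILp 2) and 2 to 3 with protoplasting (2 without either Protoplast Induced array). Over all probe sets, the called number was 3587 with array weights in place of 2253 for WUSp against FILp, 1032 in a single fit and 404 with the bioC level in place of 647 for FILp against CLV3n, and 1972 with plain eBayes and 727 in a single fit in place of 3052 with protoplasting. Without WUSp 1 or WUSp 2 it was 1628 or 2087 in place of 3616 over CLV3p, 1035 or 1318 in place of 2883 over CLV3n, and 980 or 1246 over FILp (1413 without FILp 3). It was 361, 389, 418 or 355 for FILp against CLV3n without CLV3n 1, FILp 1, FILp 2 or FILp 3, and 1576 or 1871 with protoplasting without Protoplast Induced 1 or 2; the shares of all probe sets in the text move with these numbers.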
